A study of Rattus norvegicus with 6 samples.

Results

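The neurotrophins, the ligands of the glial cell line-derived neurotrophic factor (GDNF) family and their receptors were followed in RNA-seq libraries of rat spinal cord. The genes were chosen by symbol from a list of 8, namely the ligands *Bdnf* and *Gdnf*, the neurotrophin receptors *Ntrk2*, *Ntrk3* and *Ngfr*, and the GDNF family receptors *Ret*, *Gfra1* and *Gfra3*. The deposited table of 22050 genes listed 7 of the 8 symbols. No row had the symbol *Gfra1*, but the row with the symbol *AABR07007068.1* (ENSRNOG00000017438) was described with a protein accession that RefSeq assigns to *Gfra1*. It is reported under its own symbol and was not counted among the 7. After the filter on low counts 14426 genes remained, among them 6 of the 7 members, since *Gdnf* did not pass.

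The libraries came from male Sprague–Dawley rats aged 8 to 10 weeks, 3 with sham surgery (Sham) and 3 with spared nerve injury (SNI-NP), a model of neuropathic pain that cuts part of the sciatic nerve's branches and spares another. The time between surgery and tissue collection for sequencing, and whether a library is 1 animal, are not given in the sources used here, so p-values measure the spread between these libraries. The comparison asks which genes differ in the spinal cord between SNI-NP and sham rats.

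Neurotrophins are secreted growth factors that keep neurons alive and change the strength of their synapses. Brain-derived neurotrophic factor, encoded by *Bdnf*, acts through TrkB (*Ntrk2*), neurotrophin-3 acts through TrkC (*Ntrk3*), and all neurotrophins and their precursors can bind p75NTR (*Ngfr*). GDNF and its relatives bind a GFRα coreceptor (*Gfra1* for GDNF, *Gfra3* for artemin), and the complex activates the receptor tyrosine kinase RET. In the pain pathway, BDNF released in the dorsal horn is known to raise the excitability of cord neurons, and RET and GFRα3 mark classes of sensory neurons whose cell bodies lie in the dorsal root ganglia.

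The promoter windows are shown for *Ret* and *Gfra3*, the members that varied most between libraries, and for *Gfra1*, whose row separated the groups. They come from RefSeq (build GRCr8, not the build used for the counts), run from 250 bases before to 50 after a start site, and were found for 5 of the 8 genes. *Ret* lies at chr4:153040507-153040806 (minus strand), *Gfra3* at chr18:26600176-26600475 (minus strand) and *Gfra1* at chr1:267555762-267556061 (minus strand). Capitals mark the GC box, GGGCGG on either strand.
Ret: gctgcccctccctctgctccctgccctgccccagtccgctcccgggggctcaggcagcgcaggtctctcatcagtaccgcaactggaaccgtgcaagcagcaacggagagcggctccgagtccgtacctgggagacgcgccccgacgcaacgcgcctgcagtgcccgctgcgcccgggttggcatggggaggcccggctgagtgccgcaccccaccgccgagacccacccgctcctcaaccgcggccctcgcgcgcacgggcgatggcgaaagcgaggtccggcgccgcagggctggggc
Gfra3: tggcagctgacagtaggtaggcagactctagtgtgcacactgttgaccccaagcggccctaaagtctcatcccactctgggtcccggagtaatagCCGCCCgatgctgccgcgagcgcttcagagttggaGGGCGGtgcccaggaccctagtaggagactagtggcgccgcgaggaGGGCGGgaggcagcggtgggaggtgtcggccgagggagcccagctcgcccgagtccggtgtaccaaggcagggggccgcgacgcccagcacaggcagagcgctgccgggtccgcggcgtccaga
Gfra1: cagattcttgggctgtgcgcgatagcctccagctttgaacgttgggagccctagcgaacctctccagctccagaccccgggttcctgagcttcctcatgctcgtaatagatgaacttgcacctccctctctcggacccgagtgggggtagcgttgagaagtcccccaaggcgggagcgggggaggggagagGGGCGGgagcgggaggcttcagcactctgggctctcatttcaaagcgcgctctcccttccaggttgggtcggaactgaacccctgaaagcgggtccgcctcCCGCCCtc
The GC box occurred 3 times in the *Gfra3* window, 2 times in that of *Gfra1* and 0 times in that of *Ret*, and 34.9% of 27457 promoter windows of this length held it. All 3 windows were rich in G and C, with 74.0% for *Ret*, 68.0% for *Gfra3* and 63.0% for *Gfra1* against a median of 52.3%. The letters TATAAA, found in 14.3% of windows, the cAMP response element TGACGTCA (1.91%) and the AP-1 site TGANTCA (7.33%), each searched on both strands, were in none of the 3 windows. No motif overlapped another in them. For *Bdnf* 6 start sites were listed, and the counts are per gene, so transcripts from different starts were not separated.

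Depth ranged from 16670760 to 18151156 counts per library. The labelled tissue was compared with its markers on the FPKM scale, which divides a count by gene length and library total. Markers of the cord were present, with *Gfap* of astrocytes between 130 and 320 FPKM, *Mog* of oligodendrocytes between 27.0 and 80.0, and *Gad1* of inhibitory neurons between 8.54 and 20.1. *Prx*, the periaxin gene of myelinating Schwann cells, was at 875 to 1329 FPKM. Genes of dorsal root ganglion (DRG) neurons were also present, *Calca* at 25.9 to 269 FPKM and the nociceptor sodium channel gene *Scn10a* at 2.11 to 42.9. Markers of Schwann cells and of ganglion neurons were thus measured beside those of cord in all 6 libraries. In bulk tissue fewer cells of a type and less RNA per cell cannot be told apart.

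No difference between SNI-NP and sham rats was detected for the 6 members tested. By edgeR's quasi-likelihood test 0 of 6 had an unadjusted p-value under 0.05, whereas 10.8% of all 14426 genes did (4.91% higher and 5.94% lower in SNI-NP rats). That share depended on single libraries. It was 14.6% when sham replicate 2 was dropped, 6.21% when sham replicate 1 was, 6.97% when sham replicate 3 was and 6.28% when SNI-NP replicate 3 was. After Benjamini-Hochberg adjustment over all genes 0% of them passed, and the smallest adjusted p-value of any gene was 0.116. The DESeq2 Wald test likewise gave 0 members with an unadjusted p-value under 0.05, and 194 genes overall at an adjusted p-value under 0.05. In 0 of the 6 members did the groups separate completely. Of all genes tested, 10.4% had every SNI-NP library above every sham library and 8.15% had every SNI-NP library below. Here too 6 genes are too few to tell 0 from those shares.

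**Figure D1:**
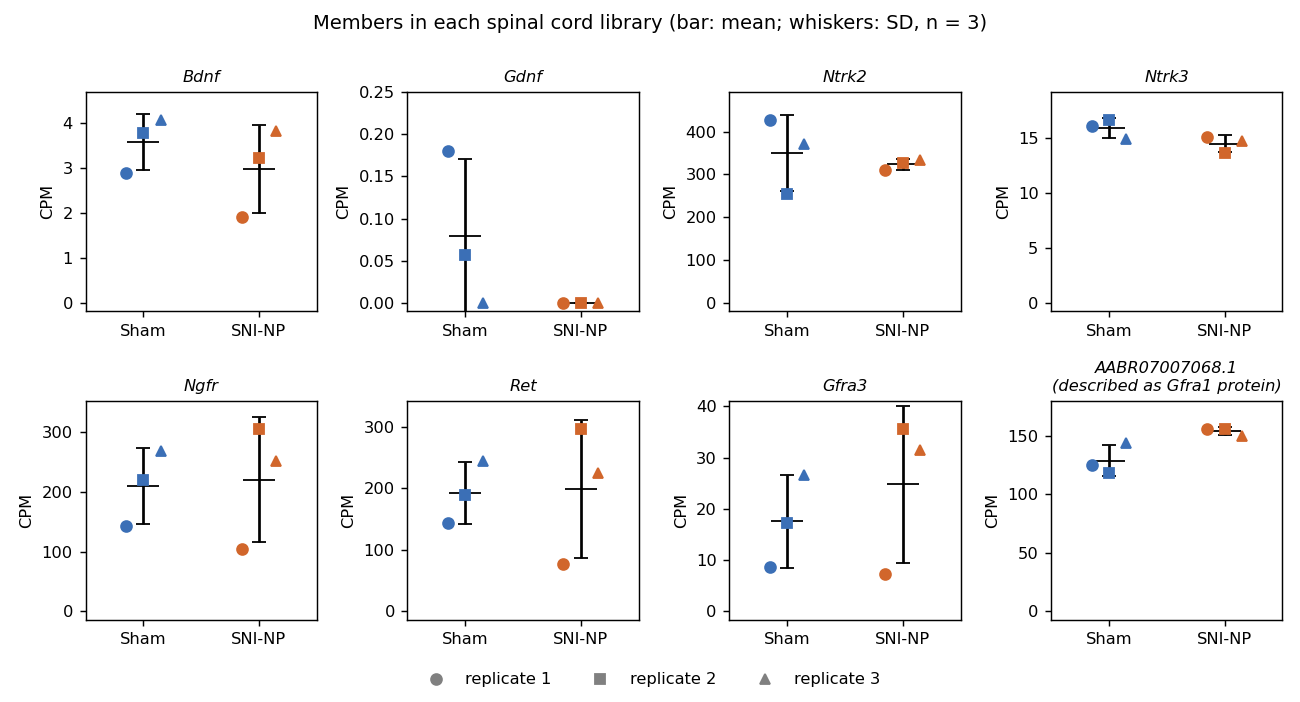
Level of each gene in CPM (counts relative to TMM-scaled library size, linear axes) in the 3 sham and 3 SNI-NP libraries, with the group mean and SD. The groups overlap for all members, and only in the *AABR07007068.1* panel do all SNI-NP points (150 to 156 CPM) lie above all sham points (118 to 144 CPM).

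*Bdnf*, the ligand of TrkB, was weakly expressed. Its levels were 2.88, 3.77 and 4.07 CPM in sham replicates 1, 2 and 3, and 1.90, 3.22 and 3.83 CPM in SNI-NP replicates 1, 2 and 3. The lowest value belonged to SNI-NP replicate 1, and the other 5 libraries were interspersed. The means were 3.58 ± 0.620 CPM in sham and 2.98 ± 0.986 CPM in SNI-NP rats (mean ± SD over 3 libraries each), a log2 fold change of -0.26 (95% interval -1.003 to 0.48, adjusted p = 0.772 by edgeR). With 33 to 70 counts per library the gene ranked above only 15.8% of the genes tested. Dropping SNI-NP replicate 1 moved the log2 fold change to -0.022, dropping sham replicate 1 to -0.41 and dropping SNI-NP replicate 3 to -0.51.

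*Gdnf* was at or below the detection limit. The counts were 3, 1 and 0 in the sham libraries and 0, 0 and 0 in the SNI-NP libraries. In the 4 libraries without a read, the upper limit given by 3 counts was 0.167 to 0.175 CPM, which covers counting error only. No fold change was given, because both groups lay at or under 3 counts per library.

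*Ntrk2*, the TrkB gene, was the most abundant member in CPM, above 97.5% of all genes tested. The sham libraries had 427, 253 and 371 CPM and the SNI-NP libraries 310, 326 and 333 CPM. All 3 SNI-NP libraries lay inside the range of the sham libraries, which itself spanned 1.69-fold. The means were 351 ± 88.8 and 323 ± 11.8 CPM (mean ± SD over 3 libraries each), with a log2 fold change of -0.12 (95% interval -0.55 to 0.32, edgeR adjusted p = 0.830). Sham replicate 2 was the lowest. Without it the log2 fold change was -0.30 with an unadjusted edgeR p of 0.0337, and without sham replicate 1 it was 0.037.

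Part of the astrocyte genes had the same extremes. Of 7 astrocyte markers, 4 had their lowest value in sham replicate 2 and their highest in sham replicate 1, as *Ntrk2* did, and 6.64% of all genes tested had that pair of extremes. The pair was not particular to astrocyte genes. It was found in 2 of 6 oligodendrocyte, 2 of 8 neuron, 2 of 8 motor neuron and 2 of 10 axon injury genes. It was also that of 1 of 7 microglia and 1 of 8 granulocyte genes, and of 0 genes in the remaining lists. *Gfap* was at 863, 332 and 682 CPM in the sham libraries and at 648, 547 and 435 CPM in the SNI-NP libraries. The summed level of the astrocyte list was 3724 to 5293 CPM in sham and 3757 to 5073 CPM in SNI-NP rats, and no marker was at 0. The part of this in the *Ntrk2* values was not tested. Astrocytes are known to express a TrkB form without the kinase domain, and counts per gene do not separate it from the full-length receptor.

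*Ntrk3*, the TrkC gene, was the steadiest member, and only 7.33% of the genes tested had a smaller SD of log2 CPM over the libraries. It had 16.1, 16.6 and 14.9 CPM in sham and 15.1, 13.6 and 14.7 CPM in SNI-NP libraries. SNI-NP replicate 1 lay just above sham replicate 3, so the groups overlapped by a single library. The means of 15.9 ± 0.880 and 14.4 ± 0.755 CPM (mean ± SD over 3 libraries each) gave a log2 fold change of -0.14 (95% interval -0.43 to 0.16, edgeR adjusted p = 0.697). This interval was the narrowest of the 6 members. The most similar profiles over the 6 libraries were those of *Gnl2*, *Abce1* and *Zfp330*, with a root mean square difference of centred log2 CPM of 0.02, 0.03 and 0.03.

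*Ngfr*, which encodes p75NTR, had 142, 220 and 268 CPM in the sham libraries and 104, 306 and 252 CPM in the SNI-NP libraries. The lowest and the highest library were both SNI-NP libraries, replicate 1 and replicate 2. The means were 210 ± 63.5 and 220 ± 104 CPM (mean ± SD over 3 libraries each), and the log2 fold change was 0.07 (95% interval -0.85 to 0.99, edgeR adjusted p = 0.961). Dropping SNI-NP replicate 1 moved it to 0.41, and dropping SNI-NP replicate 2 moved it to -0.24.

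*Ret*, the shared signalling receptor of the GDNF family, followed the same order. It was at 144, 189 and 244 CPM in sham and at 76.7, 297 and 225 CPM in SNI-NP libraries, so that the SNI-NP group alone spanned 3.87-fold. The means were 192 ± 50.1 and 200 ± 112 CPM (mean ± SD over 3 libraries each), with a log2 fold change of 0.05 (95% interval -0.99 to 1.10, edgeR adjusted p = 0.974). It became 0.44 when SNI-NP replicate 1 was dropped and -0.35 when SNI-NP replicate 2 was.

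*Gfra3*, the artemin coreceptor, varied most, with an SD of log2 CPM above that of 98.02% of the genes tested. It had 8.64, 17.3 and 26.7 CPM in sham and 7.25, 35.7 and 31.5 CPM in SNI-NP libraries. SNI-NP replicates 2 and 3 were above every sham library and SNI-NP replicate 1 was below every one. The means were 17.6 ± 9.04 and 24.8 ± 15.4 CPM (mean ± SD over 3 libraries each), a log2 fold change of 0.50 (95% interval -0.90 to 1.90, edgeR adjusted p = 0.770). It ranged from 0.14 without SNI-NP replicate 2 to 0.94 without SNI-NP replicate 1, and 0 of the 6 fits with a library left out had an unadjusted p-value under 0.05. The nearest profiles over the 6 libraries were those of *Adamts8*, *LOC108348048* and *Slc7a7*, with root mean square differences of 0.17, 0.20 and 0.21 in centred log2 CPM, against a root mean square of 0.86 for *Gfra3* itself.

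**Figure D2:**
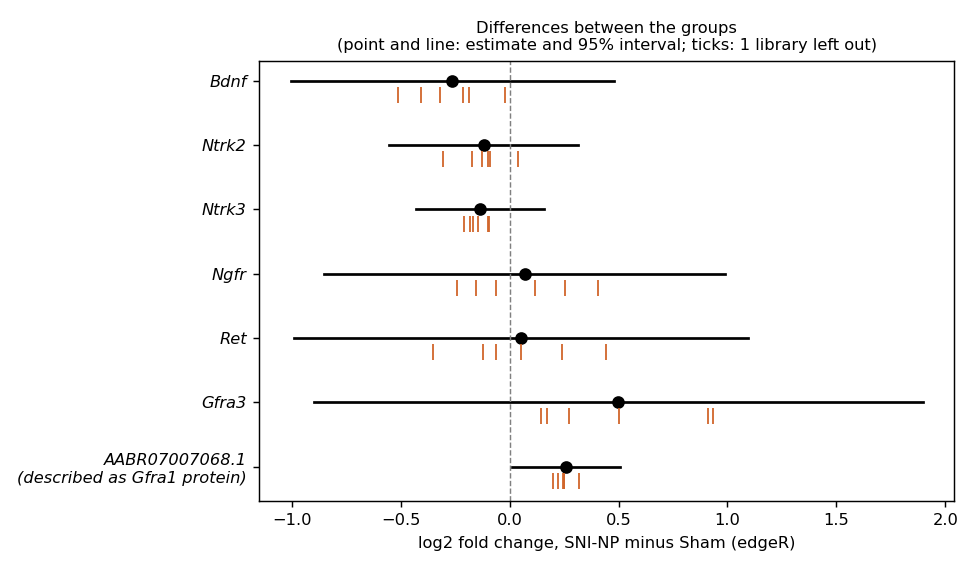
Log2 fold change of SNI-NP against sham (x axis) for each gene tested, as the edgeR estimate with its 95% interval and, as orange ticks, the estimates with 1 library left out in turn. All 6 members have intervals that include 0, widest for *Gfra3* (-0.90 to 1.90), and the interval of *AABR07007068.1* runs from 0.01 to 0.51.

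The row *AABR07007068.1* was described as the precursor of the GDNF coreceptor GFRα1, and whether it differed from the members was not tested. It had 125, 118 and 144 CPM in sham and 156, 156 and 150 CPM in SNI-NP libraries, so all SNI-NP libraries lay above all sham libraries. The means were 129 ± 13.4 and 154 ± 3.49 CPM (mean ± SD over 3 libraries each), a 1.20-fold difference or 0.26 on the log2 scale (standard error, SE, 0.11, with edgeR unadjusted p = 0.0434 and adjusted p = 0.446). It did not pass after adjustment, and complete separation in this direction was shared by 10.4% of all genes. DESeq2 gave an unadjusted p of 0.0395 and an adjusted p of 0.401. Fits that dropped a library in turn gave 0.20 to 0.32, with an unadjusted p-value under 0.05 in 1 of these 6 fits, the fit without sham replicate 3.

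*Ngfr*, *Ret* and *Gfra3* had their lowest and highest values in the same libraries. Among 14425 other genes, *Ret* was the 21st closest to *Ngfr* by root mean square difference of centred log2 CPM over the 6 libraries (0.14), and *Gfra3* was the 345th closest to *Ret* (0.36) and the 531st closest to *Ngfr* (0.36). *Bdnf*, also lowest in SNI-NP replicate 1 but highest in sham replicate 3, differed by 0.32 from *Ngfr*, less than *Gfra3* did, and by 0.40 from *Ret*. *Ntrk2* and *Ntrk3* differed from *Ret* by 0.67 and 0.68.

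**Figure D3:**
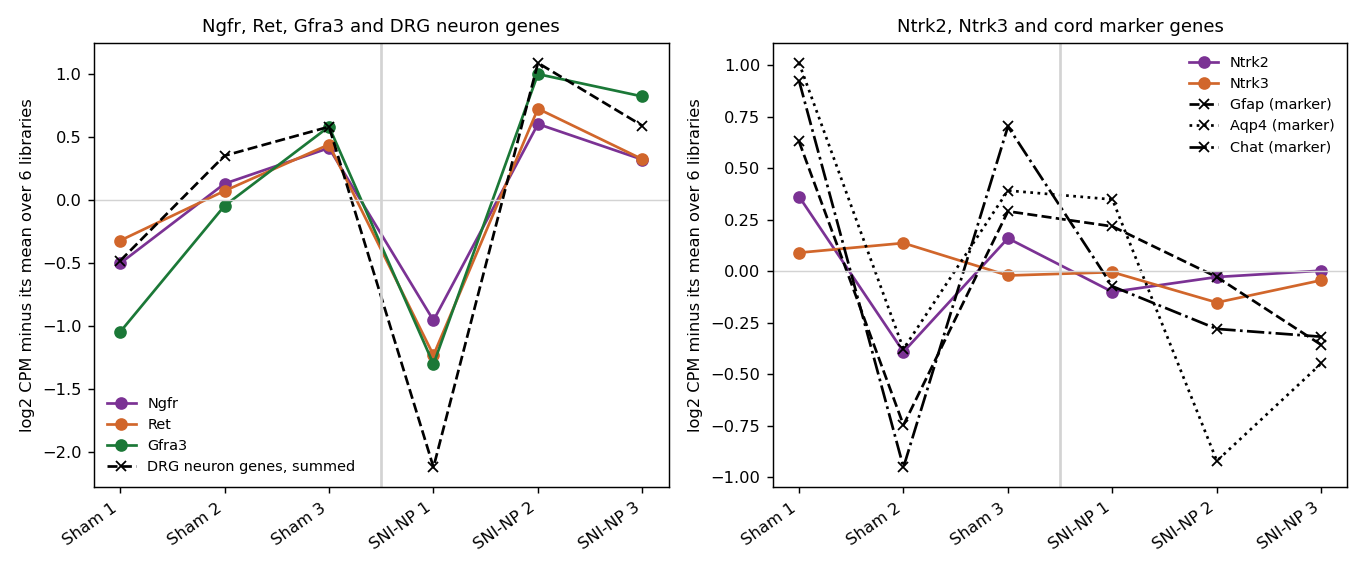
Log2 CPM minus its mean over the 6 libraries (y axis) for each library (x axis), where lines only join points of a gene and the grey line parts the groups. In the left panel *Ngfr*, *Ret*, *Gfra3* and the summed DRG neuron genes are all lowest in SNI-NP replicate 1 and highest in SNI-NP replicate 2. In the right panel *Ntrk2* is lowest in sham replicate 2 and highest in sham replicate 1, as are *Gfap* and *Chat*, whereas *Ntrk3* stays near 0. *Aqp4* is also highest in sham replicate 1 but lowest in SNI-NP replicate 2.

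The DRG neuron genes had the same extremes. All 12 genes of that list, among them *Scn10a*, *Calca* and *Avil*, were lowest in SNI-NP replicate 1 and highest in SNI-NP replicate 2, as were *Ngfr*, *Ret* and *Gfra3*, while 5.05% of the genes tested had this pair of extremes. Their summed level was 729, 1299 and 1523 CPM in sham and 235, 2163 and 1532 CPM in SNI-NP libraries, and no gene of the list was at 0. *Scn10a* went from 14.3 CPM in SNI-NP replicate 1 to 277 CPM in SNI-NP replicate 2, a wider span than that of *Ret*. The summed level did not separate the groups (exact two-sided permutation test, p = 1, where 3 against 3 libraries cannot give less than 0.1). Its part in the values of *Ngfr*, *Ret* and *Gfra3* was not tested.

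In the other lists 0 to 2 genes had that pair of extremes. The Schwann cell list was between 77119 and 93439 CPM in sham and between 89284 and 118718 CPM in SNI-NP rats, with 0 of 8 genes lowest in SNI-NP replicate 1. The motor neuron list summed to 473 to 665 CPM in sham and 294 to 933 CPM in SNI-NP rats, a sum that *Prph*, also on the DRG list, dominated. Its cholinergic genes *Chat* (3.66 to 13.4 CPM in sham, 5.68 to 6.73 CPM in SNI-NP libraries) and *Slc18a3* were instead lowest in sham replicate 2, *Slc5a7* was lowest in SNI-NP replicate 2 (5.55 CPM, against 6.14 CPM in sham replicate 2), *Ache* was lowest in SNI-NP replicate 1 (54.7 CPM), and *Mnx1* had 0 counts in a library. Of 10 axon injury genes 5 were higher in SNI-NP rats at an unadjusted edgeR p-value under 0.05, against 4.91% of all genes tested. They were *Gal*, *Atf3*, *Sprr1a*, *Jun* and *Csf1*, and 0 passed after adjustment. *Sprr1a*, with 1, 3 and 0 counts in sham and 14, 13 and 28 counts in SNI-NP libraries, passed the filter on low counts only through the SNI-NP libraries. The summed level of the 10 genes was 264 to 336 CPM in sham and 340 to 420 CPM in SNI-NP rats.

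Ratios between genes within a library were also formed, a choice made after the values were seen. Such a ratio does not remove differences in tissue content where its genes come from different cells. The part of tissue content in the ratios was not tested. The *Gfra3* to *Ret* ratio of CPM was 0.060, 0.0914 and 0.109 in sham and 0.0945, 0.120 and 0.140 in SNI-NP libraries (means 0.0870 ± 0.0250 and 0.118 ± 0.0229, ± SD over 3 libraries each, exact two-sided permutation p = 0.2, adjusted p = 0.6 over 3 ratios). The groups overlapped, and the ratio spanned 2.33-fold over the libraries where *Gfra3* itself spanned 4.92-fold. The *Ngfr* to *Ret* ratio spanned only 1.37-fold, from 0.988 to 1.36, with means of 1.08 ± 0.0894 in sham and 1.17 ± 0.169 in SNI-NP rats (mean ± SD over 3 libraries each, exact permutation p = 0.6, adjusted p = 0.8). The ratio of *AABR07007068.1* to *Ret* ranged from 0.525 to 2.03, and both extremes were SNI-NP libraries (exact permutation p = 0.8, adjusted p = 0.8).

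On the length-scaled FPKM axis, over all 6 libraries, the order of mean levels was *Ngfr* (66.4 ± 24.4 FPKM, SD, n = 6 libraries), *Ntrk2* (49.5 ± 8.65), *AABR07007068.1* (47.3 ± 4.77), *Ret* (35.2 ± 14.2), *Gfra3* (9.56 ± 5.401), *Ntrk3* (7.53 ± 0.636), *Bdnf* (0.803 ± 0.202) and *Gdnf* (0.0567 ± 0.105). Of the ligands only *Bdnf* and *Gdnf* are in this order. *Ntrk2* and *Ngfr* lay above *Bdnf*, and *Ret* above *Gdnf*, pairs that are not neighbours and were not tested. The FPKM of *Bdnf* never exceeded 1.01 while that of *Ntrk2* was never below 38.6. Neighbours in the order were compared within libraries by an exact two-sided sign-flip permutation test on log2(FPKM + 0.1), which cannot give less than 0.0312. *Ret* was above *Gfra3*, *Ntrk3* above *Bdnf* and *Bdnf* above *Gdnf* in 6 of 6 libraries. The first pairs differed by 1.99 and 3.11 on the log2 scale. Each of these pairs had an exact p = 0.0312 and an adjusted p = 0.0729 over 7 pairs, so 0 of 7 pairs passed after adjustment. The order was taken from the same FPKM values that were tested. With 3 pairs at the smallest possible p, adjustment over 7 pairs could not give them less than 0.0729. Not passing therefore says nothing about these pairs. No size is given for *Bdnf* against *Gdnf*, since *Gdnf* was listed at 0 in 4 libraries and the added 0.1 would set it. The steps from *Ngfr* to *Ntrk2* (exact p = 0.25), *Ntrk2* to *AABR07007068.1* (exact p = 0.812), *AABR07007068.1* to *Ret* (exact p = 0.0625) and *Gfra3* to *Ntrk3* (exact p = 0.906) were not larger than the spread between libraries.

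**Figure D4:**
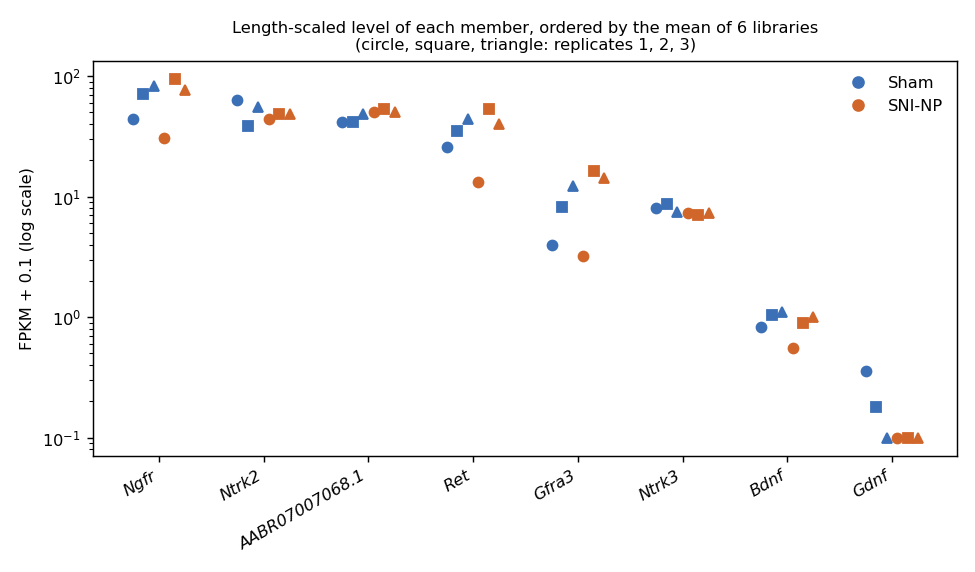
FPKM plus 0.1 on a log axis for each gene (x axis, in the order of the mean) in every library, blue for sham and orange for SNI-NP. *Ngfr*, *Ntrk2*, *AABR07007068.1* and *Ret* overlap in the upper range, the range of *Gfra3* (3.12 to 16.2 FPKM) holds all *Ntrk3* values and reaches past the lowest *Ret* value (13.2 FPKM), and *Bdnf* (0.45 to 1.01 FPKM) and *Gdnf* (0 to 0.26 FPKM) lie apart at the bottom.

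The remaining genes of the pathway were read in 5 lists. Of 68 genes tested, 6 had an unadjusted edgeR p-value under 0.05 (8.82%, against 10.8% of all genes), 3 higher and 3 lower in SNI-NP rats, and 0 had an adjusted one. The median log2 fold change of all genes tested was 0.01.

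Among the other ligands 2 of 6 passed the filter and were tested and 0 passed, with a median log2 fold change of -0.17. Neurturin, encoded by *Nrtn*, was at 2.81 ± 0.753 CPM in sham and 2.21 ± 0.580 CPM in SNI-NP rats (mean ± SD over 3 libraries each, edgeR adjusted p = 0.693). *Ntf3*, *Ntf4*, *Artn* and *Pspn* did not pass the filter, and the highest of their levels was 0.920 CPM, for *Ntf3* in SNI-NP replicate 1.

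Of 12 further receptors and coreceptors 10 were tested and 0 passed, with a median log2 fold change of 0.00 (0.00268). The smallest p-values belonged to *Ncam1*, which encodes a neural cell adhesion molecule that can bind GDNF (164 ± 39.1 CPM in sham, 142 ± 22.6 CPM in SNI-NP rats, ± SD over 3 libraries each, edgeR adjusted p = 0.699), and to *Gfra2*, the neurturin coreceptor (60.9 ± 3.36 and 65.2 ± 8.35 CPM, ± SD over 3 libraries each, edgeR adjusted p = 0.779). Without sham replicate 2 the log2 fold change of *Ncam1* was -0.38 (edgeR unadjusted p = 0.0452). *Sort1*, which encodes the coreceptor of p75NTR for proneurotrophins, was at 277 to 451 CPM over both groups, and was named after its values were seen.

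Of the genes that process or release the ligands 11 of 13 were tested, and 2 were higher in SNI-NP rats at an unadjusted p-value under 0.05 and 0 lower, with a median log2 fold change of 0.07. *Furin*, which encodes a convertase that cuts proneurotrophins, was at 56.4, 58.2 and 60.1 CPM in sham and at 73.1, 66.8 and 75.8 CPM in SNI-NP libraries, without overlap, as in 10.4% of all genes tested. Its log2 fold change was 0.30 (SE 0.09, with edgeR unadjusted p = 0.0135 and adjusted p = 0.426). *Pcsk6*, a convertase of the same family, was at 96.0, 90.1 and 94.9 CPM in sham and at 116, 102 and 112 CPM in SNI-NP libraries (log2 fold change 0.23, SE 0.10, with edgeR unadjusted p = 0.0445 and adjusted p = 0.452). The unadjusted p-value was under 0.05 in 4 of the 6 fits with a library left out for *Furin* and in 1 of 6 for *Pcsk6*, which also had an unadjusted edgeR p-value of 0.0502 when genes were not filtered.

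Of the adaptors and proximal signalling genes 28 of 30 were in the table and tested, of which 1 was higher and 3 were lower at an unadjusted p-value under 0.05 (median log2 fold change -0.03). *Sos1*, which encodes the exchange factor that couples receptor tyrosine kinases to Ras, was at 64.7, 55.9 and 65.0 CPM in sham and at 46.9, 39.7 and 46.0 CPM in SNI-NP libraries. Its log2 fold change was -0.48 (SE 0.11, with edgeR unadjusted p = 0.00351 and adjusted p = 0.336). *Dok6*, which encodes an adaptor that binds RET and TrkC, had 39, 32 and 32 counts in sham and 13, 5 and 2 counts in SNI-NP libraries. With 2.002 ± 0.295 and 0.380 ± 0.328 CPM (mean ± SD over 3 libraries each) it had the largest difference of the list, a log2 fold change of -2.37 (SE 0.58, with edgeR unadjusted p = 0.0041 and adjusted p = 0.336).

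The SNI-NP values of *Sos1* and *Dok6* were below every sham value, as in 8.15% of all genes tested. *Sos1* had an unadjusted edgeR p-value under 0.05 in all 6 fits that left out a library, with log2 fold changes from -0.55 to -0.41. *Dok6* did too, from -3.29 (without SNI-NP replicate 1) to -1.99, but its size rests on few SNI-NP reads. It passed the filter on low counts through its sham libraries, and was not tested when 10 counts were required in every library. *Kidins220*, which encodes a scaffold of Trk receptors, was at 247 ± 19.1 CPM in sham and 204 ± 18.6 CPM in SNI-NP rats (mean ± SD over 3 libraries each, log2 fold change -0.28, unadjusted p = 0.0421, adjusted p = 0.445 by edgeR). *Dok1*, an adaptor that dampens kinase signalling, was at 7.49 ± 1.42 and 10.7 ± 0.719 CPM (mean ± SD over 3 libraries each, log2 fold change 0.51, unadjusted p = 0.0281, adjusted p = 0.436 by edgeR). Each of these passed in 2 of the 6 fits with a library left out, *Kidins220* without sham replicate 2 or SNI-NP replicate 3 and *Dok1* without sham replicate 2 or SNI-NP replicate 1.

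Of 18 known downstream targets 17 were tested and 0 passed, with a median log2 fold change of -0.09. *Homer1*, an activity-induced scaffold gene of the synapse, was the 1 gene of the list without overlap. Over all genes tested, 8.15% had every SNI-NP library below every sham library. It had the smallest p-value and was at 3.24, 3.15 and 2.74 CPM in sham and at 2.59, 1.94 and 1.45 CPM in SNI-NP libraries (log2 fold change -0.61, standard error 0.29, edgeR adjusted p = 0.491). *Etv1*, which encodes an ETS factor of sensory neurons, was at 45.9 ± 12.8 CPM in sham and 35.1 ± 4.62 CPM in SNI-NP rats (mean ± SD over 3 libraries each, edgeR adjusted p = 0.532). Without SNI-NP replicate 1 the log2 fold change of *Homer1* was -0.84 (edgeR unadjusted p = 0.0295), and without sham replicate 1 that of *Etv1* was -0.62 (edgeR unadjusted p = 0.0041).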

How the data were processed

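Total RNA of spinal cord was sequenced in 6 libraries, 3 per group, as the labels assign them. The authors mapped the reads to a genome release they call Rat6 and kept unique sequences. The submitters' processing notes name FastQC, STAR and HTSeq, without versions. The annotation release and the use of strand are not given in the sources used here, so antisense reads cannot be told apart. For each gene the authors deposited an unnormalized estimated count, not always whole (for the members always), and an FPKM value.

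Counts were rounded and analysed with edgeR version 4.0.16 in R version 4.3.3 (filterByExpr, TMM, quasi-likelihood test, condition as the single term, Benjamini-Hochberg over 14426 genes). DESeq2 version 1.42.0 was an alternative. CPM are on TMM-scaled library sizes. Intervals are 95% on the fitted scale. Totals of 16670760 to 18151156 allow 0.167 to 0.18 CPM for a count of 0. Scripts were tested on simulated data.

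Members and lists were chosen with earlier results of these data known. All members were named, with the pathway genes past an unadjusted p of 0.05 (at most 4 a list, otherwise the 2 smallest p). For the 2 members with the smallest p, the 3 most similar profiles were named. *Crkl*, *Bex1*, *Myh1*, *Myh2*, *Ttn* and *Col1a2* were not analysed here. Some genes of the pathway and marker lists are not reported here by name.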

Additional observations from a re-analysis of the deposited data

How the results depend on the processing

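With 3 libraries per group and an unadjusted threshold, calls depend on single libraries. The number of members with an adjusted edgeR p-value under 0.05 was 0 with DESeq2, with 2 other scalings (RLE, upper quartile), without a filter or with a minimum of 10 counts, with the replicate block and in each fit that left out 1 library. The number at an unadjusted p-value under 0.05 was likewise 0 under those settings except without sham replicate 2, where it was 1 (*Ntrk2*), so it ranged from 0 to 1. It was also 1 when *AABR07007068.1* was counted as a member, a setting added after seeing the data. The number of pathway genes at an unadjusted p-value under 0.05 was between 4 and 9 when a library was left out, with 9 without sham replicate 2 and 4 without sham replicate 3 or SNI-NP replicate 3. Over all genes the count at an unadjusted p-value under 0.05 was 908 to 2134 with a library left out. The count over all genes at an adjusted p-value under 0.05 was 222 without SNI-NP replicate 1, 194 under DESeq2 and 2 without sham replicate 2.

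Deviations of same-numbered libraries from their group means correlated at 0.24, -0.15 and 0.06 across genes for replicates 1, 2 and 3. The labels give a replicate number only, and whether same-numbered libraries share more than that was not tested. In the fit with a replicate block the SE fell from 0.60 to 0.26 for *Gfra3* and from 0.39 to 0.19 for *Ngfr*, and rose from 0.13 to 0.16 for *Ntrk3*. With the replicate block the log2 fold change was -0.023 for *Ngfr* and -0.12 for *Ret*, opposite to the fit without it, the unadjusted p-values were 0.0854 for *AABR07007068.1*, 0.0894 for *Pcsk6* and 0.0825 for *Kidins220*, and 1319 genes passed at an unadjusted p-value under 0.05 against 1565. Leaving out 1 library gave -0.24 to 0.41 for *Ngfr*, -0.35 to 0.44 for *Ret* and -0.30 to 0.037 for *Ntrk2*. The cause was not tested. Refits of the 6 members tested, *AABR07007068.1*, the pathway genes named with a p-value, *Slc17a6*, *Slc1a2*, *Prtn3* and *Col1a1* gave 263 values, of which 221 kept direction and side of the unadjusted threshold, 29 no longer passed, 4 newly passed and 9 turned direction.

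For marker lists, 85 of 88 alternatives moved the log2 ratio of the summed level by less than 1 SD. That SD was 1.28 for the DRG list, whose log2 ratio of 0.15 became 0.64 when SNI-NP replicate 1 was dropped, -0.42 when SNI-NP replicate 2 was, -0.11 when sham replicate 1 was, and -0.36 as a mean log2 CPM. With the mean log2 CPM in place of the sum, the ratio past 1 SD was -0.34 for astrocytes (-0.03 by the sum), -0.25 for oligodendrocytes (-0.03) and 0.65 for axon injury genes (0.32). The cause was not tested. The order test with 5 libraries cannot reach 0.05, so leaving out a library says nothing about it. Depth limited *Gdnf*, *Ntf3*, *Ntf4*, *Artn* and *Pspn*.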

Other observations

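Markers of other cell types, read beside the trophic factor genes, gave values that belong to no comparison above. Over all genes tested, 4.91% were higher and 5.94% lower in SNI-NP rats at an unadjusted edgeR p-value under 0.05, and the counts here stand beside those shares. None of these genes passed after adjustment over all genes, where the smallest edgeR adjusted p-value was 0.116. Of 8 neuron markers 2 were lower in SNI-NP rats at an unadjusted edgeR p-value under 0.05 and 0 higher. *Slc17a6*, which encodes the vesicular glutamate transporter of cord excitatory neurons, was at 50.1, 34.8 and 49.999 CPM in sham and at 25.3, 26.8 and 27.0 CPM in SNI-NP libraries (log2 fold change -0.77, SE 0.16, adjusted p = 0.307). The glutamate transporter gene *Slc1a2* was the 1 of 7 astrocyte markers with such a p-value (log2 fold change -1.08, SE 0.39, adjusted p = 0.436), and its groups overlapped. Its unadjusted p-value was under 0.05 in 2 of the 6 fits with a library left out, which dropped sham replicate 2 or SNI-NP replicate 1.

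Of 7 granulocyte genes tested 3 were higher at an unadjusted p-value under 0.05, with *Prtn3* of neutrophil precursors at 1.32, 1.41 and 2.21 CPM in sham and 4.66, 3.28 and 3.54 CPM in SNI-NP libraries. All 5 skeletal muscle genes tested were uneven, with a summed level of 12.1 to 72.1 CPM in sham and 10.2 to 423 CPM in SNI-NP rats, and 1 of them (*Myh4*) had an unadjusted p-value under 0.05. Of 6 oligodendrocyte and 7 microglia markers 0 had one, with summed levels of 30372 to 40884 and 240 to 313 CPM in sham and of 30040 to 40088 and 259 to 286 CPM in SNI-NP rats. In the list of meninges and fibroblasts 1 of 7 genes did, *Col1a1* (log2 fold change 0.43, SE 0.14, adjusted p = 0.436, with an unadjusted edgeR p of 0.0549 without sham replicate 1), and for Schwann cells 1 of 8, *Prx*.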
